A study of Mus musculus with 12 samples.

Results

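The 10 immune checkpoint genes described here are Cd274 (PD-L1), Pdcd1lg2 (PD-L2), Cd80 (B7-1), Cd86 (B7-2), Pdcd1 (PD-1), Ctla4 (CTLA-4), Tigit, Lag3, Havcr2 (TIM-3) and Ido1. They were taken by symbol from the 24421 gene symbols in the count tables of mouse brain tumours and normal mouse brain. All 10 were found and all 10 were abundant enough to be tested, among 16364 genes tested. RNA-seq was read from 12 libraries, 3 in each of 4 groups, and the deposited values were raw counts of reads per gene symbol.

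Immune checkpoints are receptor and ligand pairs that set how far a T cell responds to antigen. PD-L1 and PD-L2 on tumour or myeloid cells bind the inhibitory receptor PD-1, and B7-1 and B7-2 on antigen-presenting cells bind either the activating receptor CD28 or the inhibitory receptor CTLA-4. TIGIT, LAG-3 and TIM-3 are further inhibitory receptors, and IDO1 is an enzyme that breaks down tryptophan, which T cells need to divide.

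Tumours named YAP1-TFE3, YAP1-FAM118B or YAP1-MAMLD1-dR3R1 were raised by injecting RCAS virus that carried the named fusion gene into the brain, and they were frozen before RNA was extracted. The fusions join YAP1, a transcriptional co-activator of the Hippo pathway, to part of another protein, and the labels do not spell out the suffix dR3R1. RCAS is an avian retroviral vector that enters mouse cells only where they carry a transgene for its receptor. The sources used here do not give the strain, the promoter that drives the receptor, or the age and sex of the animals. Naive samples came from normal cortex of uninjected mice, although their tissue field, like that of the tumours, reads brain tumour. The extraction protocol in the labels describes cultured cells, whereas the series design describes frozen tumours. The labels do not say that replicates came from separate animals, so each p-value measures the spread between these samples, part of which may be technical. In every group but YAP1-TFE3 the sex-linked genes given below differed between libraries, so the libraries of such a group were not all from the same animal.

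Library totals ran between 19850220 and 24760814 counts, so 3 counts corresponded to 0.116 to 0.145 CPM (counts for each 1000000 counts of the library, its total scaled by TMM). YAP1-FAM118B replicate 2 held both Xist, at 162 CPM, and the Y-linked gene Ddx3y, at 29.9 CPM. Naive replicate 2 likewise held Xist at 25.6 CPM and Ddx3y at 49.3 CPM. Every YAP1-TFE3 library held Ddx3y, at 68.8 to 87.8 CPM, with Xist at 0.434 CPM or less. Xist read 320 CPM in YAP1-FAM118B replicate 1, 492 in YAP1-MAMLD1-dR3R1 replicate 1 and 305 in naive replicate 3. Those libraries held Ddx3y at 0.0440 CPM or less. The remaining libraries held Ddx3y, at 62.8 to 85.8 CPM, and Xist at 0.0443 CPM or less. YAP1-MAMLD1-dR3R1 replicate 1 was also the lowest library of its group for every member but Cd80 and Ido1. The part of sex in the results was not tested. Summed markers of projection neurons of the cortex read 38.2 to 332 CPM in YAP1-TFE3, 729 to 1074 in YAP1-FAM118B, at most 216 in YAP1-MAMLD1-dR3R1 and 875 to 2054 in naive libraries. The naive label of cortex thus had its markers, and the YAP1-FAM118B libraries came close to the naive ones in them. Summed markers of microglia, the resident macrophages of the brain, read 1265 to 3645, 1740 to 1992, 5043 to 8563 and 307 to 375 CPM in the same order of groups. Summed T cell markers read 14.1 to 74.2, 27.3 to 40.4, 33.5 to 196 and 12.2 to 16.9 CPM. Among them, Cd3d, Cd8b1 and Trat1 had no count in any naive library. Foxp3 and Cd4 made up most of the mean sum in naive (9.39 and 3.07 of 14.6 CPM) and in YAP1-FAM118B (11.2 and 15.4 of 34.0). YAP1-TFE3 had a similar mean sum of 34.3 CPM, but Cd3d averaged 1.37 CPM there and 0.362 in YAP1-FAM118B. Of the 11 T cell markers tested, edgeR called 5 higher than naive in YAP1-TFE3, where 40.6% of all genes were called higher, and 10 in YAP1-MAMLD1-dR3R1, where 34.4% were. In YAP1-FAM118B it called 0, with 2 at an unadjusted p under 0.05 and 4 called by DESeq2. The part of cell makeup in the results that follow was not tested, and in bulk tissue fewer cells of a type cannot be told apart from less RNA per cell.

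The promoters of 3 members are shown because these genes differed between fusions in opposite ways: Cd80 had its highest mean in YAP1-TFE3 tumours, and Havcr2 and Cd274 had theirs in YAP1-MAMLD1-dR3R1 tumours. Each run covers 250 bases before and 50 bases after a RefSeq transcription start in GRCm38.p6, read 5′ to 3′ on the plus strand, with matches to the AP-1 letters TGANTCA in capitals.
Cd80, chr16:38458683-38458982: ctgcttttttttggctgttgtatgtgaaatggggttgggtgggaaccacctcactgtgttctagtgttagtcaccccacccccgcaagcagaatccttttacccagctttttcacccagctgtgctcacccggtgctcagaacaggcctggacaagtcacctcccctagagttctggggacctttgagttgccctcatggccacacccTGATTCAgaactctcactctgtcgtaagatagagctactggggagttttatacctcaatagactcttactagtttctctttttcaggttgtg
Havcr2, chr11:46454681-46454980: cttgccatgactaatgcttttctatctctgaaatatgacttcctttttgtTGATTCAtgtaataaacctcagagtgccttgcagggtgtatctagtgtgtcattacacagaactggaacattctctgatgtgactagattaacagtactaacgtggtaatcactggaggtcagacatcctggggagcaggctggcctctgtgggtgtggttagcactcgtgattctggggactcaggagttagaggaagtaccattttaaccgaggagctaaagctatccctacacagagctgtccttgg
Cd274, chr19:29367188-29367487: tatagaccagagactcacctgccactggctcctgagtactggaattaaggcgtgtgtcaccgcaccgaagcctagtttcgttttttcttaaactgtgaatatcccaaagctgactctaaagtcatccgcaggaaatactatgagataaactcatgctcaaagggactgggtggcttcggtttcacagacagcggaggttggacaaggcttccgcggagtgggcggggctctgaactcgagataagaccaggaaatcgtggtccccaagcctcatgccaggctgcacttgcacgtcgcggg
The Cd80 match began at position -42 and the Havcr2 match at position -200 relative to the start. These letters read the same on both strands. The promoters searched were those of 7 members, these 3 with Pdcd1lg2, Pdcd1, Ctla4 and Tigit, and the AP-1 letters stood in 2 of the 7, against 7.81% of all 32851 promoters of the same length. On both strands, none of the 7 held the TEAD letters GGAATG (14.7% of all promoters), the E-box CACGTG of the TFE family (7.15%), the interferon-stimulated response element, written as GAAA repeated after a gap of 2 bases (3.44%), or the GAS element TTCNNNGAA (8.3%). The motifs searched do not overlap each other in these windows. A match is a description of letters, not a binding site.

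In the GRCm38 annotation, Cd274 lies on chromosome 19 at 29362107 to 29388095 and Pdcd1lg2 beside it at 29410919 to 29472927, both on the plus strand. Cd80, Cd86 and Tigit lie on chromosome 16, Cd80 at 38457430 to 38495958 on the plus strand, Cd86 at 36568956 to 36666158 and Tigit at 43626137 to 43665125 on the minus strand. Ctla4 (60909025 to 60915832, plus strand) and Pdcd1 (94038305 to 94052553, minus strand) lie on chromosome 1. Lag3 lies on chromosome 6 at 124904359 to 124912434 (minus strand), Havcr2 on chromosome 11 at 46454931 to 46481255 (plus strand) and Ido1 on chromosome 8 at 24584133 to 24596952 (minus strand). Exons of Cd274 overlap an antisense transcript, AC119228.1, over 511 bases. The sources used here do not say whether counting used strand, so reads of that transcript cannot be told apart from Cd274 reads.

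Checkpoint genes were compared first between each fusion tumour and normal cortex. With a Benjamini-Hochberg adjusted p under 0.05 in edgeR's quasi-likelihood test, 7 of 10 members rose in YAP1-TFE3, 5 of 10 in YAP1-FAM118B and 9 of 10 in YAP1-MAMLD1-dR3R1 tumours. Without naive and YAP1-FAM118B replicates 2 the counts were 7, 4 and 7. The background was high: 40.6%, 21.3% and 34.4% of all genes tested were called higher in these 3 comparisons, 30.0%, 8.45% and 28.8% were called lower, and 70.6%, 29.7% and 63.2% were called in either direction. The median log2 fold change over the members was 3.56, 2.30 and 5.44, against 0.23, -0.05 and 0.06 over all genes. The libraries of tumour and naive did not overlap for 6, 7 and 9 members, against 75.7%, 56.7% and 72.9% of all genes tested. All 3 comparisons share the naive libraries. The all-gene median of YAP1-TFE3 against naive was 0.23 with TMM scaling, 0.07 with RLE factors and 0.03 with library size alone, so log2 values of that comparison carry a shift of this size. The split of calls over all genes also moved with scaling: genes called higher made up 71.6% of calls in YAP1-FAM118B against naive with TMM and 56.6% with DESeq2. For YAP1-TFE3 against YAP1-FAM118B they made up 54.2% with TMM and 41.3% with library size alone, and for YAP1-TFE3 against YAP1-MAMLD1-dR3R1 57.2% and 42.0%.

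**Figure D1:**
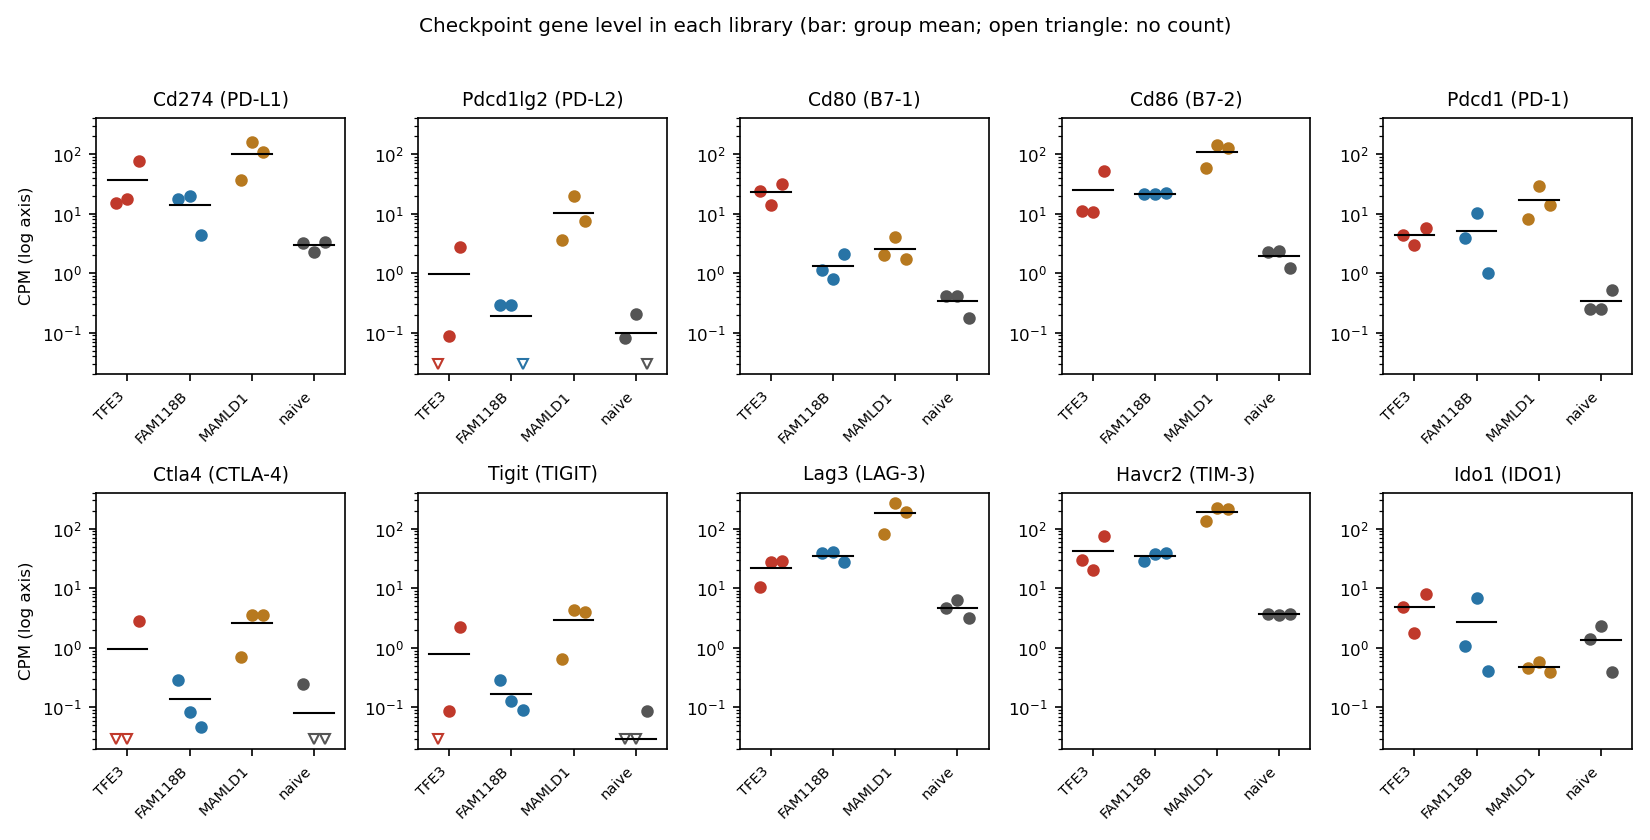
CPM of each checkpoint gene on a log axis, with 1 point per library, a bar at each group mean and an open triangle for a library with no count. Lag3 reached 80.8 to 272 CPM in YAP1-MAMLD1-dR3R1 libraries and stayed at 3.21 to 6.32 in naive ones, while Cd80 was highest in YAP1-TFE3, at 14.2 to 31.6 CPM.

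Cd274 encodes PD-L1, the main ligand of PD-1. It read 14.9, 17.4 and 76.8 CPM in YAP1-TFE3 replicates 1 to 3, 17.8, 19.4 and 4.34 in YAP1-FAM118B tumours, 37.0, 157 and 109 in YAP1-MAMLD1-dR3R1, and 3.20, 2.26 and 3.34 in naive. Every tumour library lay above every naive one, YAP1-FAM118B replicate 3 only just, and the tumour groups spread widely within themselves. Cd274 rose in YAP1-TFE3 tumours (log2 fold change 3.63 ± 0.83 (SE), edgeR adjusted p = 0.00297) and in YAP1-MAMLD1-dR3R1 tumours (5.10 ± 0.89, adjusted p = 0.000733). The YAP1-FAM118B difference of 2.24 ± 0.79 missed the threshold (edgeR adjusted p = 0.0573). It passed in DESeq2 (adjusted p = 0.0111) and when only the groups compared were fitted (0.0168). It also passed without YAP1-FAM118B replicate 3 (0.0406), YAP1-TFE3 replicate 1 (0.0438), 2 (0.0483) or 3 (0.0213), or YAP1-MAMLD1-dR3R1 replicate 1 (0.0465).

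Pdcd1lg2 encodes PD-L2, the other PD-1 ligand, which is mostly made by dendritic cells and macrophages. Counts were 0, 2 and 60 in YAP1-TFE3, 7, 7 and 0 in YAP1-FAM118B tumours, 91, 403 and 172 in YAP1-MAMLD1-dR3R1, and 2, 5 and 0 in naive libraries. YAP1-MAMLD1-dR3R1 stood alone above all naive libraries, at 3.53 to 19.5 CPM, and a single YAP1-TFE3 library carried nearly all of that group's reads. Pdcd1lg2 rose in YAP1-MAMLD1-dR3R1 (log2 fold change 6.62 ± 1.80, edgeR adjusted p = 0.00916). The YAP1-TFE3 difference was 3.22 ± 1.68 (edgeR adjusted p = 0.11) and turned to -1.13 without YAP1-TFE3 replicate 3. In YAP1-FAM118B it was 0.96 ± 1.79 (edgeR adjusted p = 0.697).

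Cd80 encodes B7-1, a ligand of both CD28 and CTLA-4 that activated antigen-presenting cells display. It read 24.2, 14.2 and 31.6 CPM in YAP1-TFE3, 1.11, 0.798 and 2.08 in YAP1-FAM118B tumours, 1.98, 4.01 and 1.73 in YAP1-MAMLD1-dR3R1, and 0.410, 0.419 and 0.176 in naive. YAP1-TFE3 libraries lay above all others, and no tumour library overlapped the naive ones. Cd80 rose 68.2-fold in YAP1-TFE3 tumours (log2 fold change 6.09 ± 0.59, edgeR adjusted p = 1.56e-05). It rose by a log2 fold change of 2.91 ± 0.54 in YAP1-MAMLD1-dR3R1 (edgeR adjusted p = 0.00108) and of 1.96 ± 0.54 in YAP1-FAM118B (edgeR adjusted p = 0.0208). The YAP1-FAM118B call ended without YAP1-FAM118B replicate 3 (1.49, adjusted p = 0.0886) and without naive replicate 3 (1.66, adjusted p = 0.0721), both in edgeR.

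Cd86 encodes B7-2, which binds the same receptors as B7-1 and is carried by resting as well as activated myeloid cells. It read 11.04, 10.5 and 51.9 CPM in YAP1-TFE3, 21.3, 21.4 and 22.1 in YAP1-FAM118B tumours, 58.8, 143 and 126 in YAP1-MAMLD1-dR3R1, and 2.26, 2.39 and 1.23 in naive. The YAP1-FAM118B libraries were almost alike, whereas YAP1-TFE3 replicate 3 stood well above its group. Cd86 rose in all 3 fusions, with log2 fold changes of 3.64 ± 0.66 in YAP1-TFE3 (edgeR adjusted p = 0.000719), 3.46 ± 0.65 in YAP1-FAM118B tumours (0.00326) and 5.80 ± 0.72 in YAP1-MAMLD1-dR3R1 (9.95e-05).

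**Figure D2:**
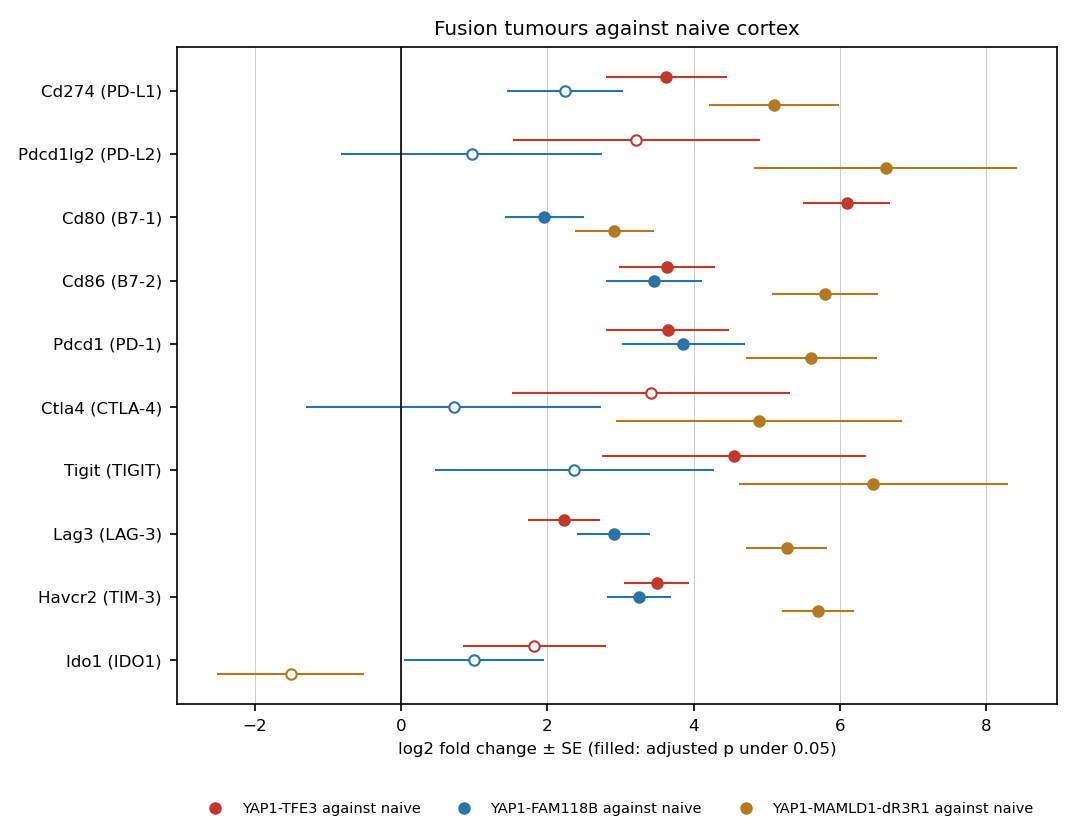
Log2 fold change of each checkpoint gene in each fusion tumour over naive cortex, with its standard error, filled where the edgeR adjusted p was under 0.05. Cd80 was furthest from 0 in YAP1-TFE3, at 6.09, and Ido1 alone lay below 0, at -1.51 in YAP1-MAMLD1-dR3R1.

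Pdcd1 encodes PD-1, the inhibitory receptor of activated and exhausted T cells. It read 4.34, 2.97 and 5.66 CPM in YAP1-TFE3, 3.82, 10.2 and 1.01 in YAP1-FAM118B tumours, 7.96, 29.1 and 13.7 in YAP1-MAMLD1-dR3R1, and 0.246, 0.251 and 0.528 in naive. All tumour libraries lay above the naive ones, and YAP1-FAM118B spread the most in proportion. Pdcd1 rose in YAP1-TFE3 (3.65 ± 0.84, edgeR adjusted p = 0.00308), YAP1-FAM118B (3.86 ± 0.85, 0.00728) and YAP1-MAMLD1-dR3R1 (5.61 ± 0.90, 0.000445). Without naive and YAP1-FAM118B replicates 2, which both held Xist and Y-linked reads, the YAP1-FAM118B difference was 2.63 and no longer passed (edgeR adjusted p = 0.056).

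Ctla4 encodes CTLA-4, which competes with CD28 for B7 ligands on activated and regulatory T cells. Counts were 0, 0 and 61 in YAP1-TFE3, 7, 2 and 1 in YAP1-FAM118B tumours, 18, 75 and 81 in YAP1-MAMLD1-dR3R1, and 6, 0 and 0 in naive. YAP1-MAMLD1-dR3R1 libraries were above every naive library, and in YAP1-TFE3 replicate 3 held every read. Ctla4 rose in YAP1-MAMLD1-dR3R1 (4.89 ± 1.95, edgeR adjusted p = 0.0492), but this call was close to the threshold. It remained without any 1 YAP1-TFE3 library or YAP1-MAMLD1-dR3R1 replicate 1. It ended without any 1 of the YAP1-FAM118B or naive libraries or YAP1-MAMLD1-dR3R1 replicate 2 or 3, with log2 fold changes of 4.34 to 8.91 and edgeR adjusted p between 0.0505 and 0.134, and without naive and YAP1-FAM118B replicates 2 (0.157). The YAP1-TFE3 difference of 3.42 ± 1.90 (edgeR adjusted p = 0.131) turned to -4.04 without replicate 3. The YAP1-FAM118B difference was 0.72 ± 2.02 (edgeR adjusted p = 0.8) and turned to -0.32 without YAP1-FAM118B replicate 1.

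Tigit encodes a receptor of T and NK cells that binds poliovirus receptor, the product of Pvr. Counts were 0, 2 and 49 in YAP1-TFE3, 7, 3 and 2 in YAP1-FAM118B tumours, 17, 88 and 91 in YAP1-MAMLD1-dR3R1, and 0, 0 and 2 in naive. Again YAP1-TFE3 replicate 3 carried its group, and all YAP1-MAMLD1-dR3R1 libraries lay above the naive ones. With only 2 naive counts, the ratio of scaled counts was 101 in YAP1-MAMLD1-dR3R1 (exact 95% interval 27.5 to 838), 27.9 in YAP1-TFE3 (7.34 to 237) and 6.10 in YAP1-FAM118B (1.36 to 56.1), intervals that cover counting error only. Tigit rose in YAP1-MAMLD1-dR3R1 (edgeR adjusted p = 0.0113), a call that ended without naive and YAP1-FAM118B replicates 2 (0.0584). Its call in YAP1-TFE3 (edgeR adjusted p = 0.0435) remained without YAP1-TFE3 replicate 1 or 2 or YAP1-MAMLD1-dR3R1 replicate 1. Without YAP1-TFE3 replicate 3 the log2 fold change was 0.47 (edgeR adjusted p = 0.815), and without any 1 of the remaining libraries, in YAP1-FAM118B, YAP1-MAMLD1-dR3R1 and naive, adjusted p lay between 0.055 and 0.137. Without naive and YAP1-FAM118B replicates 2 it was 0.142. In YAP1-FAM118B the difference did not pass (edgeR adjusted p = 0.365). YAP1-FAM118B replicate 3 and naive replicate 3 held 2 counts each, so that the separation of these groups in CPM came from library size, and Tigit is 1 of the 7 members counted above as not overlapping.

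Lag3 encodes LAG-3, a receptor related to CD4 that binds MHC class II. It read 10.7, 27.2 and 28.3 CPM in YAP1-TFE3, 38.6, 39.9 and 27.5 in YAP1-FAM118B tumours, 80.8, 272 and 194 in YAP1-MAMLD1-dR3R1, and 4.60, 6.32 and 3.21 in naive. The YAP1-MAMLD1-dR3R1 libraries stood apart from every other library, and no tumour library reached down to the naive range. Lag3 rose in YAP1-TFE3 (2.23 ± 0.49, edgeR adjusted p = 0.0024), YAP1-FAM118B (2.91 ± 0.50, 0.00199) and YAP1-MAMLD1-dR3R1 (5.27 ± 0.56, 4.06e-05).

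Havcr2 encodes TIM-3, a receptor of T cells that microglia and macrophages also carry. It read 30.3, 20.1 and 74.0 CPM in YAP1-TFE3, 28.7, 38.0 and 38.3 in YAP1-FAM118B tumours, 136, 221 and 216 in YAP1-MAMLD1-dR3R1, and 3.69, 3.60 and 3.69 in naive. The naive libraries were nearly identical, and every tumour library was several times higher. Havcr2 rose in YAP1-TFE3 (3.50 ± 0.44, edgeR adjusted p = 7.64e-05), YAP1-FAM118B (3.25 ± 0.44, 0.000459) and YAP1-MAMLD1-dR3R1 (5.70 ± 0.49, 1.52e-05).

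Ido1 encodes the enzyme that starts the breakdown of tryptophan to kynurenine. It read 4.87, 1.77 and 8.03 CPM in YAP1-TFE3, 1.07, 6.80 and 0.415 in YAP1-FAM118B tumours, 0.466, 0.580 and 0.399 in YAP1-MAMLD1-dR3R1, and 1.40, 2.35 and 0.396 in naive. Each tumour group overlapped the naive libraries, and the YAP1-MAMLD1-dR3R1 libraries lay at the low end. No difference from naive passed: log2 fold changes were 1.82 ± 0.97 in YAP1-TFE3 (edgeR adjusted p = 0.118), 1.00 ± 0.96 in YAP1-FAM118B tumours (0.448) and -1.51 ± 1.01 in YAP1-MAMLD1-dR3R1 (0.213). The YAP1-TFE3 difference passed without YAP1-FAM118B replicate 2 (1.82, edgeR adjusted p = 0.0458) and without naive and YAP1-FAM118B replicates 2 (2.44, 0.0311). The YAP1-FAM118B difference turned to -0.89 without YAP1-FAM118B replicate 2 and to -0.27 without both.

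Set against each other, the fusion tumours differed in which checkpoint gene was high. YAP1-TFE3 tumours had the most Cd80, and YAP1-MAMLD1-dR3R1 tumours the most Lag3, Havcr2 and Cd86. Of the 9 tumour libraries, YAP1-MAMLD1-dR3R1 replicate 2 was highest for 8 members, and YAP1-TFE3 replicate 3 was highest for Cd80 and Ido1.

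Between YAP1-TFE3 and YAP1-FAM118B, 1 of 10 members passed, against 51.7% of all genes tested, and 1 member had libraries that did not overlap, against 58.4%. That member was Cd80, higher in YAP1-TFE3 by a log2 fold change of 4.13 ± 0.53 (edgeR adjusted p = 0.00022). Log2 differences of the other members ran between -0.68 ± 0.47 for Lag3 and 2.70 ± 1.80 for Ctla4. YAP1-TFE3 replicate 3 weighed on this comparison: without it Cd86 (-1.22, edgeR adjusted p = 0.0229) and Havcr2 (-0.70, 0.0328) were lower in YAP1-TFE3, whereas with it they stood at 0.18 ± 0.58 and 0.24 ± 0.40. Their signs also turned without YAP1-MAMLD1-dR3R1 replicate 2 or 3 or naive replicate 1, to -0.11 for Cd86 and about -0.035 for Havcr2 each time. That of Cd86 turned with library size alone too, to -0.057. Without YAP1-TFE3 replicate 3, Pdcd1lg2 turned from 2.25 to -2.16, Ctla4 from 2.70 to -4.83 and Tigit from 2.18 to -1.96, and none of these passed. Ido1 (0.82 ± 0.95) was called higher in YAP1-TFE3 without YAP1-FAM118B replicate 2 (2.71, edgeR adjusted p = 0.033) and without naive and YAP1-FAM118B replicates 2 (2.71, 0.0344). Pdcd1 (-0.21 ± 0.72) turned to 0.83 in both cases.

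Between YAP1-TFE3 and YAP1-MAMLD1-dR3R1, 5 of 10 members passed, against 39.5% of all genes tested (22.6% higher and 16.9% lower in YAP1-TFE3), and 7 did not overlap, against 48.2%. Cd80 (3.18 ± 0.50, edgeR adjusted p = 0.000966) and Ido1 (3.33 ± 1.05, 0.0298) were higher in YAP1-TFE3. Lag3 (-3.04 ± 0.50, edgeR adjusted p = 0.00115), Havcr2 (-2.20 ± 0.41, 0.00242) and Cd86 (-2.16 ± 0.60, 0.0175) were lower. The Ido1 call ended without YAP1-TFE3 replicate 1 or 3 or any 1 YAP1-MAMLD1-dR3R1 library (2.62 to 3.31, edgeR adjusted p = 0.0644 to 0.0891), and the Cd86 call ended when only these groups were fitted (-2.17, 0.07). Without YAP1-TFE3 replicate 3, 8 members passed, among them Cd274 (-2.76, edgeR adjusted p = 0.0152), Pdcd1lg2 (-7.74, 0.00563), Ctla4 (-8.91, 0.0147) and Tigit (-5.95, 0.0111). Pdcd1, at -1.96 ± 0.74 (edgeR adjusted p = 0.0574), passed without YAP1-FAM118B replicate 2 (0.0301) or 3 (0.0231), without YAP1-MAMLD1-dR3R1 replicate 1 (0.0432) and without naive and YAP1-FAM118B replicates 2 (0.0435). It also passed with DESeq2 (0.0141), RLE factors (0.0483), library size alone (0.0413), no filter on low counts (0.0429) and a fit of these groups only (0.0381).

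**Figure D3:**
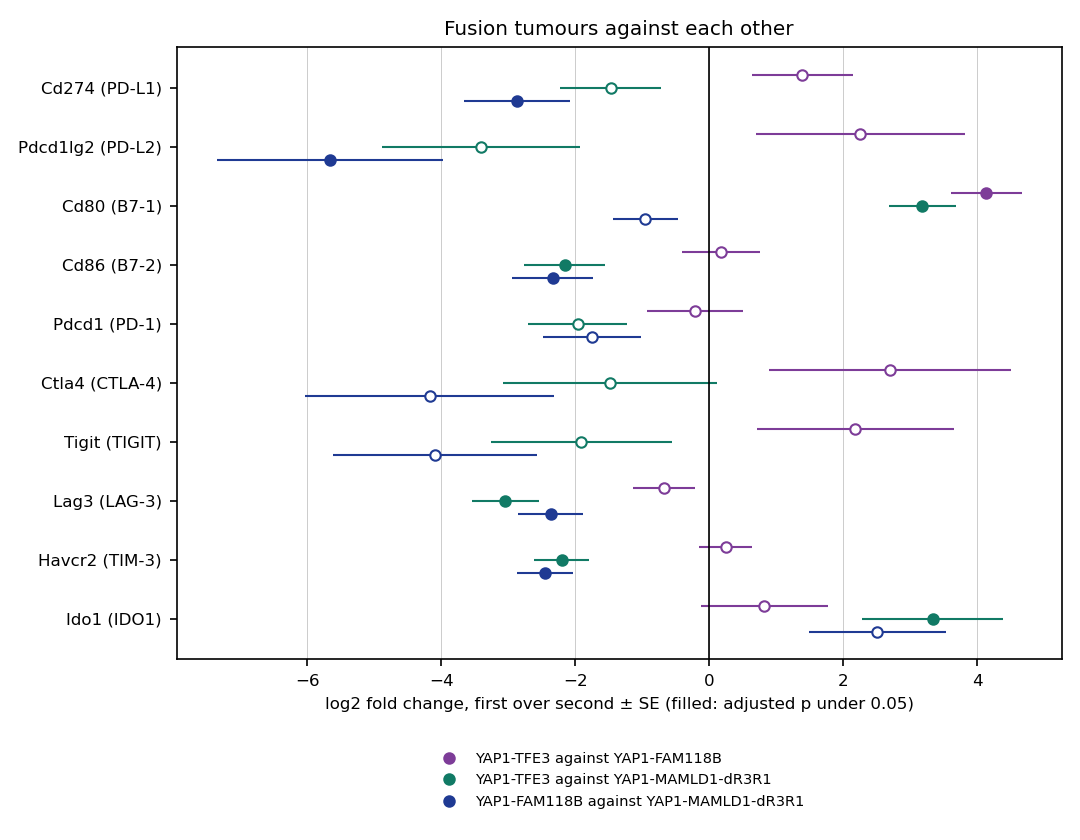
Log2 fold change of each checkpoint gene between pairs of fusion tumours, first-named over second-named, with its standard error, filled where the edgeR adjusted p was under 0.05. Cd80 was the only member called in YAP1-TFE3 over YAP1-FAM118B, at 4.13, and Pdcd1lg2 lay lowest in YAP1-FAM118B over YAP1-MAMLD1-dR3R1, at -5.66.

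Between YAP1-FAM118B and YAP1-MAMLD1-dR3R1, 5 of 10 members passed, all lower in YAP1-FAM118B, against 26.2% of all genes tested and 13.5% called lower. For 7 members the libraries did not overlap, against 48.8% of all genes. The 5 were Pdcd1lg2 (-5.66 ± 1.69, edgeR adjusted p = 0.0354), Cd274 (-2.86 ± 0.79, 0.028), Havcr2 (-2.45 ± 0.42, 0.00689), Lag3 (-2.37 ± 0.48, 0.0109) and Cd86 (-2.34 ± 0.61, 0.0227). Havcr2 alone passed without naive and YAP1-FAM118B replicates 2. Lag3 then had an edgeR adjusted p of 0.052, Cd274 of 0.0904, Cd86 of 0.0993 and Pdcd1lg2 of 0.121, at log2 fold changes of -2.33 to -6.06.

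These calls also rested on single libraries. Without any 1 YAP1-FAM118B library or YAP1-MAMLD1-dR3R1 replicate 2 or 3, Cd274 (edgeR adjusted p = 0.063 to 0.0923), Pdcd1lg2 (0.0687 to 0.11) and Cd86 (0.0554 to 0.0753) no longer passed. Pdcd1lg2 was also lost without naive replicate 1 (0.0547). Pdcd1 passed without YAP1-FAM118B replicate 2 (-2.80, edgeR adjusted p = 0.0424), Ctla4 without YAP1-TFE3 replicate 3 (-4.07, 0.0406) and Tigit without YAP1-TFE3 replicate 1 (-3.99, 0.0443) or 3 (-3.99, 0.0217). Here the sign of these members did not turn. DESeq2 called 8 members, adding Pdcd1 (0.0461) and Tigit (0.0255) on the lower side and Ido1 (2.52, 0.029) on the higher, and it called 6273 of all genes in this comparison where edgeR called 4293.

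Divided by the length of each gene's exons, the levels of the members could be ordered within a group. In YAP1-MAMLD1-dR3R1 Lag3 averaged 86.4 CPM per kb and Havcr2 70.2, followed by Cd86 at 29.8 and Cd274 at 27.9, with Cd80 at 0.695 and Ido1 at 0.264 last. In YAP1-TFE3 the order was Havcr2 15.2, Lag3 10.5, Cd274 10.0, Cd86 6.68 and Cd80 6.29 CPM per kb, and Ctla4 was last at 0.405. In YAP1-FAM118B Lag3 stood at 16.8, Havcr2 at 12.9, Cd86 at 5.90 and Cd274 at 3.83 CPM per kb, and Cd80 at 0.358. In naive cortex Lag3 (2.23), Havcr2 (1.35) and Cd274 (0.810) led, and Pdcd1lg2, Ctla4 and Tigit were at 0.0495 or less. Lag3 and Havcr2 thus headed the list in every group. Their libraries overlapped in all tumour groups, so their order there did not exceed their spread, whereas in naive cortex Lag3 lay above Havcr2 in every library. In YAP1-TFE3 all neighbours in the order overlapped. Overlap here refers to ranges over libraries. Genes can overlap and still keep the same order within every library, as Cd274 and Cd86 did in YAP1-TFE3. In YAP1-FAM118B Havcr2 stood clear of Cd86 and Cd86 of Cd274, in YAP1-MAMLD1-dR3R1 Havcr2 stood clear of Cd86 and Cd80 of Ido1, and the other neighbours overlapped. In naive cortex Havcr2 stood clear of Cd274, Cd86 of Pdcd1 and Pdcd1 of Cd80.

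Set against Csf1r, the receptor that microglia and macrophages need to survive, Havcr2, Cd86, Cd274, Lag3 and Cd80 kept different ratios. Csf1r itself read 299, 258 and 1011 CPM in YAP1-TFE3, 515, 359 and 584 in YAP1-FAM118B tumours, 1172, 1625 and 1892 in YAP1-MAMLD1-dR3R1, and 72.7, 74.2 and 60.5 in naive. Havcr2 ran between 7.32 and 10.1 counts per 100 Csf1r counts in YAP1-TFE3, 5.57 and 10.6 in YAP1-FAM118B tumours, 11.4 and 13.6 in YAP1-MAMLD1-dR3R1, and 4.85 and 6.10 in naive libraries. Cd86 ran between 3.69 and 5.13, 3.78 and 5.96, 5.02 and 8.81, and 2.03 and 3.22 in the same order. Both ratios were higher in every YAP1-MAMLD1-dR3R1 library than in every naive one, by a smaller factor than the CPM values. This was not particular to that fusion: the Cd86 ratio also lay above every naive library in YAP1-TFE3 and YAP1-FAM118B. The Havcr2 ratio did so in YAP1-TFE3, and in YAP1-FAM118B it overlapped the naive range. Cd274, at 4.98 to 7.60 in YAP1-TFE3, 0.742 to 5.42 in YAP1-FAM118B, 3.15 to 9.67 in YAP1-MAMLD1-dR3R1 and 3.05 to 5.52 in naive libraries, overlapped the naive range in every fusion. So did Lag3, at 2.80 to 10.5, 4.71 to 11.1, 6.89 to 16.7 and 5.31 to 8.52 counts per 100 Csf1r counts in the same order. Cd80 was unlike them, at 3.12 to 8.08 counts per 100 Csf1r counts in YAP1-TFE3, 0.215 to 0.355 in YAP1-FAM118B, 0.0914 to 0.247 in YAP1-MAMLD1-dR3R1 and 0.291 to 0.565 in naive libraries. Per 100 Cd86 counts, Cd80 had 60.8 to 219 in YAP1-TFE3, 3.73 to 9.39 in YAP1-FAM118B, 1.38 to 3.36 in YAP1-MAMLD1-dR3R1 and 14.3 to 18.2 in naive. No group outside YAP1-TFE3 reached its range, and the naive libraries lay between YAP1-TFE3 and the other fusions. Whether tumour cells or myeloid cells held the Cd80 reads was not tested.

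**Figure D4:**
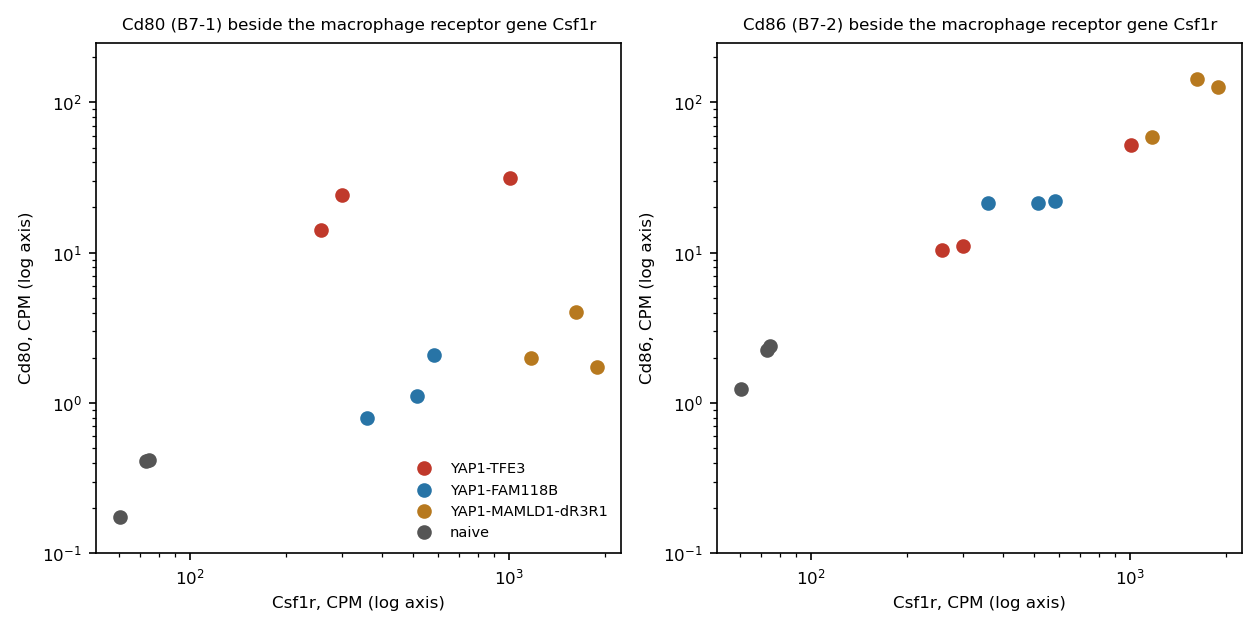
CPM of Cd80 and of Cd86 against Csf1r in each of the 12 libraries, on log axes. Cd86 had 2.03 to 8.81 counts per 100 Csf1r counts over all libraries, lowest in the naive ones. For Cd80 the YAP1-TFE3 libraries stood above the others, at 14.2 to 31.6 CPM.

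Among the tumour libraries, Ctla4 and Tigit went with the T cell receptor chains. In naive cortex Ctla4 did not: replicate 1 held 6 Ctla4 counts and no Cd3 count, and replicate 3 held 7 Cd3 counts and no Ctla4 count. Summed Cd3d, Cd3e and Cd3g counts were 10, 8 and 380 in YAP1-TFE3, 61, 24 and 12 in YAP1-FAM118B tumours, 125, 1069 and 885 in YAP1-MAMLD1-dR3R1, and 0, 0 and 7 in naive. YAP1-TFE3 replicate 3 was thus the library of its group with T cell reads, as it was for Ctla4 and Tigit. Per 100 of these counts, Ctla4 had 0 to 16.1 in YAP1-TFE3, 8.33 to 11.5 in YAP1-FAM118B and 7.02 to 14.4 in YAP1-MAMLD1-dR3R1 libraries, and Tigit 0 to 25, 11.5 to 16.7 and 8.23 to 13.6. Pdcd1 and Lag3 behaved otherwise. Per 100 Cd3 counts, Pdcd1 had 32.1 to 900 in YAP1-TFE3, 152 to 1012 in YAP1-FAM118B and 34.8 to 164 in YAP1-MAMLD1-dR3R1. Lag3 had 160 to 7675, 1543 to 4967 and 495 to 1665 in the same order, so Lag3 outnumbered Cd3 in every tumour library. Which cells held the Pdcd1 and Lag3 reads was not tested.

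**Figure D5:**
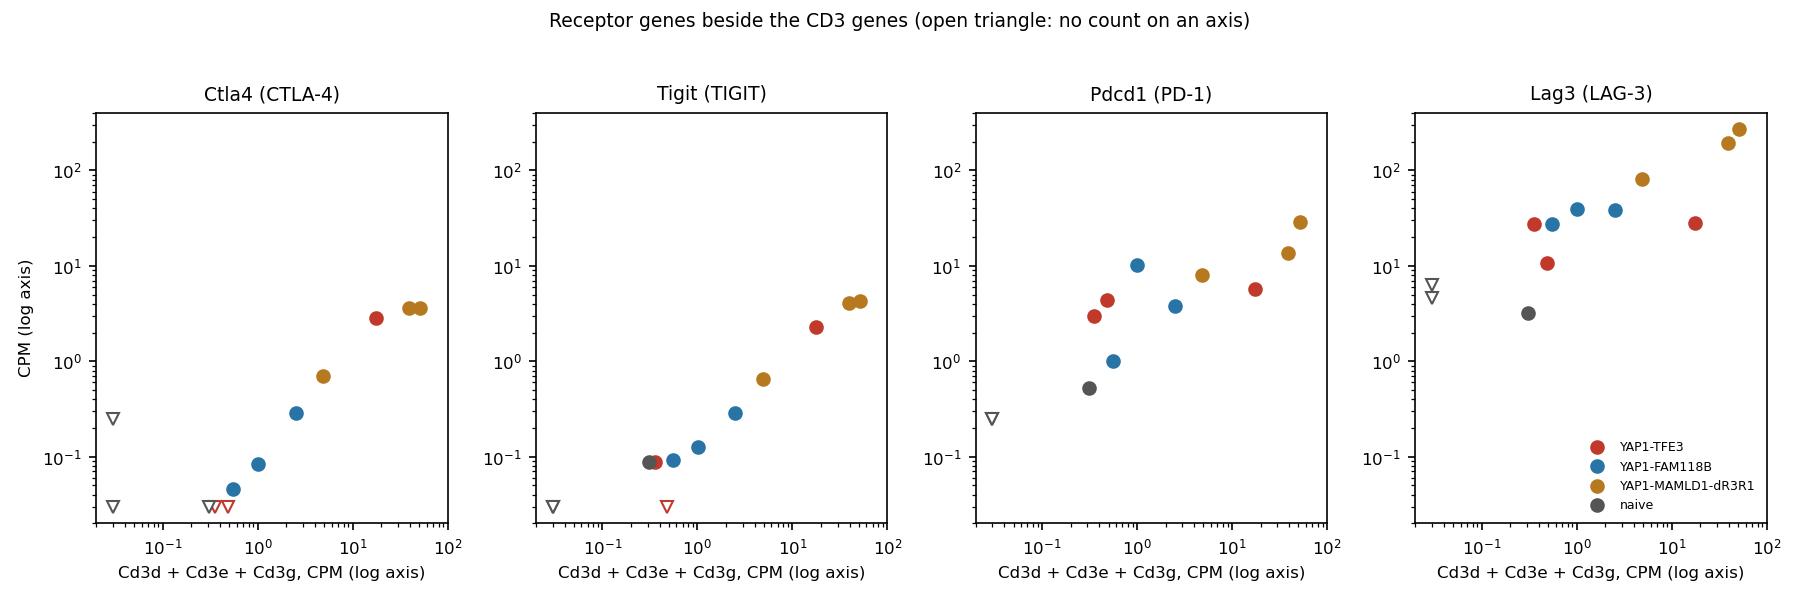
CPM of Ctla4, Tigit, Pdcd1 and Lag3 against the sum of Cd3d, Cd3e and Cd3g in each library, on log axes, with an open triangle where either had no count. The 3 libraries with the most Cd3, at 17.6 to 51.7 CPM, were also the highest for Ctla4 and Tigit, while Lag3 was as high as 39.9 CPM in a YAP1-FAM118B library with Cd3 at 1.01 CPM.

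The genes whose log2 CPM followed each member most closely over the 9 tumour libraries are given as a description, since these libraries share groups and depth. Only genes with a mean of at least 5 CPM in these libraries were compared, leaving out predicted genes named by number. A rarer gene could thus follow a member more closely than those named. Cd86 was closest to Il21r (Pearson r = 0.996), Trim14 and the microglial gene Aif1, and Havcr2 to Kcnk6 (0.994), the cannabinoid receptor gene Cnr2 and the phagocyte oxidase gene Ncf1. Cd274 was closest to the microglial gene Siglech (r = 0.988), Gpr84 and Cd180. Pdcd1lg2 was closest to Sp110 (r = 0.990), the chemokine gene Ccl5 and H2-T24, Ctla4 to the T cell co-receptor gene Cd8a (0.984), Tlr12 and Gimap3, and Tigit to Tlr12 (0.989), Psmb9 and Gbp7. Pdcd1 was closest to Siglecf (r = 0.976), Cdkal1 and Cst7. Lag3 was closest to Klhl36 (r = 0.983), Zbtb12 and Tmem243. Cd80 stood with a different set, Faf1 (r = 0.989), Spag5 and Acadl, and so did Ido1, with Cyld (0.977), Rab3b and Serac1.

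Co-stimulatory receptors and ligands push T cells on where checkpoints hold them back. Of 13 tested, 10 rose in YAP1-TFE3, 8 in YAP1-FAM118B tumours and 13 in YAP1-MAMLD1-dR3R1, against 40.6%, 21.3% and 34.4% of all genes called higher, with median log2 fold changes of 3.98, 3.16 and 6.00. With the 2 genes that had no naive count set at their bound, the medians were 3.78, 3.05 and 5.89. Tnfsf18, the ligand of GITR, had 695 counts in YAP1-TFE3, 134 in YAP1-FAM118B tumours and 1831 in YAP1-MAMLD1-dR3R1, against 1 in naive, a ratio of 761 (95% counting interval 136 to 30094), 136 (24.0 to 5417) and 1883 (338 to 74427). Tnfsf9, the ligand of 4-1BB, averaged 17.0 ± 11.1 CPM in YAP1-TFE3 and 0.523 ± 0.142 in naive (SD, n = 3 each; log2 fold change 5.01, edgeR adjusted p = 0.000122). It was also higher in YAP1-TFE3 than in YAP1-FAM118B (1.95 ± 0.58, edgeR adjusted p = 0.0183) and than in YAP1-MAMLD1-dR3R1 (2.39 ± 0.60, 0.0103). Cd40, which antigen-presenting cells use to receive T cell help, averaged 24.6 ± 9.36 CPM in YAP1-MAMLD1-dR3R1 and 0.323 ± 0.124 in naive (edgeR adjusted p = 8.3e-05). It was also called higher than naive in YAP1-TFE3, at 4.50 ± 3.77 CPM (edgeR adjusted p = 0.00078), and in YAP1-FAM118B, at 7.52 ± 3.43 (0.0011).

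Of 17 other inhibitory receptors and ligands tested, 10 rose and 2 fell in YAP1-TFE3, 9 rose in YAP1-FAM118B tumours and 11 in YAP1-MAMLD1-dR3R1, with medians of 2.08, 1.85 and 2.97. Over all genes, 40.6%, 21.3% and 34.4% were called higher in these comparisons, and 30.0% lower in YAP1-TFE3. Lgals3, a galectin that macrophages and many tumour cells secrete, averaged 1659 ± 406 CPM in YAP1-TFE3, 142 ± 63.9 in YAP1-FAM118B, 118 ± 13.1 in YAP1-MAMLD1-dR3R1 and 1.54 ± 0.565 in naive. Its log2 difference was 3.54 ± 0.40 for YAP1-TFE3 over YAP1-FAM118B (edgeR adjusted p = 0.000116) and 3.81 ± 0.41 for YAP1-TFE3 over YAP1-MAMLD1-dR3R1 (0.000107), and Cd80 was likewise called higher in YAP1-TFE3 in both pairs. Lgals9, a ligand of TIM-3, averaged 300 ± 104 CPM in YAP1-TFE3, 238 ± 73.8 in YAP1-MAMLD1-dR3R1 and 6.63 ± 1.52 in naive. Pvr, the ligand of TIGIT, averaged 70.0 ± 9.56 CPM in YAP1-TFE3, 32.2 ± 8.67 in YAP1-FAM118B and 7.75 ± 0.802 in naive. The 2 that fell in YAP1-TFE3 were Cd200, a neuronal ligand that restrains microglia, at 20.1 ± 8.03 against 118 ± 5.50 CPM in naive (-2.55 ± 0.28, edgeR adjusted p = 2.9e-05), and Cd47, the signal against phagocytosis, at 70.4 ± 17.7 against 106 ± 9.56 CPM (-0.59 ± 0.18, 0.0128). Summed neuron markers read 90.7 to 643 CPM in YAP1-TFE3 and 5124 to 7570 in naive libraries, and their part in the Cd200 difference was not tested.

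Interferon-gamma is the T cell and NK cell signal that induces PD-L1 and IDO1. Of 18 genes of its pathway, 15 rose in YAP1-TFE3, 12 in YAP1-FAM118B tumours and 17 in YAP1-MAMLD1-dR3R1, against 40.6%, 21.3% and 34.4% of all genes called higher, with medians of 3.61, 2.31 and 5.29. Nlrc5, the activator of MHC class I genes, averaged 92.7 ± 74.0 CPM in YAP1-TFE3, 17.9 ± 6.25 in YAP1-FAM118B, 153 ± 86.0 in YAP1-MAMLD1-dR3R1 and 0.565 ± 0.0643 in naive. Socs3, a feedback inhibitor of cytokine signalling, averaged 104 ± 8.20, 145 ± 24.7, 201 ± 6.10 and 2.97 ± 0.647 CPM in the same order. Ifng itself had 28 counts in YAP1-TFE3, 12 in YAP1-FAM118B tumours and 172 in YAP1-MAMLD1-dR3R1, against 2 in naive, ratios of 15.3 (95% counting interval 3.86 to 133), 6.10 (1.36 to 56.1) and 88.5 (24.1 to 736). These intervals leave out the spread between libraries, and Ifng averaged 0.433 ± 0.750 CPM in YAP1-TFE3. Ifng was called higher in YAP1-MAMLD1-dR3R1 (edgeR adjusted p = 0.0212), but not in YAP1-TFE3 (0.127) or YAP1-FAM118B (0.418). Ido1, a textbook target of the pathway, averaged 0.482 ± 0.0914 CPM in YAP1-MAMLD1-dR3R1, the group in which all 3 of these genes averaged highest. Between YAP1-FAM118B and YAP1-MAMLD1-dR3R1, 9 of the 18 were lower in YAP1-FAM118B, against 13.5% of all genes. Between YAP1-TFE3 and YAP1-MAMLD1-dR3R1, 5 were lower in YAP1-TFE3, against 16.9% of all genes.

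Of 13 tested genes of tryptophan and kynurenine handling, 6 rose and 1 fell in YAP1-TFE3, 4 rose in YAP1-FAM118B, and 7 rose and 3 fell in YAP1-MAMLD1-dR3R1. The medians were 1.29, 0.59 and 1.12. Of all genes, 40.6%, 21.3% and 34.4% were called higher and 30.0%, 8.45% and 28.8% lower. Tdo2 and Ido2, the other enzymes that open the tryptophan ring, were both lower in YAP1-MAMLD1-dR3R1. Tdo2 averaged 0.110 ± 0.117 CPM there and 2.59 ± 1.25 in naive (-4.46 ± 0.94, edgeR adjusted p = 0.00231), and Ido2 averaged 0.382 ± 0.132 and 2.06 ± 0.634 CPM (-2.41 ± 0.67, 0.0102). Tdo2 was also the gene that fell in YAP1-TFE3, with 1 count against 182 in naive (-6.95 ± 1.17, edgeR adjusted p = 0.000442). In YAP1-FAM118B its difference missed the threshold (-2.38 ± 0.82, edgeR adjusted p = 0.0525). Kynu, the kynureninase gene further down the pathway, had 1234 counts in YAP1-MAMLD1-dR3R1 against 2 in naive, a ratio of 635 (95% counting interval 175 to 5246). It was also called higher in YAP1-TFE3, with 200 counts (edgeR adjusted p = 0.000666), and in YAP1-FAM118B, with 96 (0.00724). Ccbl2, which encodes a kynurenine aminotransferase, averaged 49.0 ± 17.7 CPM in YAP1-TFE3 and 4.75 ± 1.28 in naive (3.36 ± 0.30, edgeR adjusted p = 9.66e-06), and it was higher in YAP1-TFE3 than in YAP1-FAM118B (3.07 ± 0.30, 4.69e-05) and YAP1-MAMLD1-dR3R1 (2.79 ± 0.29, 9.39e-05).

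Of 14 genes of T cell receptor signalling and exhaustion, 8 rose and 1 fell in YAP1-TFE3, 5 rose in YAP1-FAM118B tumours and 9 in YAP1-MAMLD1-dR3R1, with medians of 2.01, 1.70 and 3.64. The shares of all genes called higher were 40.6%, 21.3% and 34.4%, and 30.0% were called lower in YAP1-TFE3. Ptpn6, which encodes the phosphatase SHP-1 of all blood cell lineages, averaged 63.0 ± 57.3 CPM in YAP1-TFE3, 58.8 ± 11.5 in YAP1-FAM118B, 209 ± 73.8 in YAP1-MAMLD1-dR3R1 and 2.84 ± 0.514 in naive. Tcf7 is used as a marker of T cells that keep the capacity to renew. It averaged 9.27 ± 2.78, 11.1 ± 3.69, 40.1 ± 13.6 and 2.61 ± 0.454 CPM in the same order of groups. It was called higher than naive in all 3 fusions (edgeR adjusted p = 0.000976, 0.00164 and 2.32e-05). Summed Cd3 counts were 10, 8 and 380 in YAP1-TFE3 libraries and 61, 24 and 12 in YAP1-FAM118B ones. Which cells held the Tcf7 reads was not tested. The gene that fell in YAP1-TFE3 was Tox, a regulator of T cell exhaustion that neurons also express, at 4.80 ± 5.69 CPM against 22.4 ± 8.07 in naive (-2.22 ± 0.79, edgeR adjusted p = 0.0279).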

How the data were processed

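RNA-seq of mouse brain tumours and normal cortex was read from 1 table of raw counts per library, deposited by the authors and made with HTSeq on mm10, per the submitters' processing notes. The sources used here name no aligner, annotation or strand setting. Totals ran between 19850220 and 24760814 counts, and intervals and floors of 3 counts cover counting error only. Genes were kept with filterByExpr (minimum count 10), scaled by TMM and tested with edgeR 4.0.16 (limma 3.58.1, R 4.3.3) in 1 quasi-likelihood fit of all 12 libraries by group, with Benjamini-Hochberg adjustment over 16364 genes in each of 6 contrasts, and SE was taken from the F statistic. CPM used TMM-scaled library sizes. Lengths and positions came from a GRCm38 annotation, promoters from RefSeq. The fit was tested on counts simulated from naive means, with a single fixed spread and few changed genes, all raised in YAP1-TFE3. Those counts do not have the spread or the share of changed genes of these data. Named pathway genes were the 3 with the smallest adjusted p per list and comparison, plus genes called against the majority, and others were chosen after their values were seen. The members and lists were chosen with earlier results of these data known. Alternatives were DESeq2 1.42.0, RLE factors, library size alone, no filter, only the groups compared, a replicate block and leaving out libraries.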

Additional observations from a re-analysis of the deposited data

How the results depend on the processing

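For each member and contrast, 19 other settings gave 1125 values, of which 1012 kept their direction and side of the threshold, 58 lost and 33 gained a call, and 22 changed sign. A member that a setting did not test gave no value. Of 60 combinations of member and contrast, 27 kept direction and side of the threshold in every setting that tested them. The cause of the changes was not tested. Cd80 was called higher in YAP1-TFE3 than in each other group in every setting run. Leaving out 1 library at a time, the number of members called was 6 to 7 for YAP1-TFE3, 4 to 6 for YAP1-FAM118B and 8 to 9 for YAP1-MAMLD1-dR3R1 against naive. It was 1 to 3 for YAP1-TFE3 against YAP1-FAM118B, 4 to 8 for YAP1-TFE3 against YAP1-MAMLD1-dR3R1 and 2 to 7 for YAP1-FAM118B against YAP1-MAMLD1-dR3R1. That last count of 5 became 8 with DESeq2 and 1 without naive replicate 2 and YAP1-FAM118B replicate 2 together, and the YAP1-TFE3 against YAP1-FAM118B count of 1 became 2 without both. Of all genes, 4293 were called for YAP1-FAM118B against YAP1-MAMLD1-dR3R1, but 1010 without both, and 1666 to 1932 without YAP1-FAM118B replicate 1 or 2 or YAP1-MAMLD1-dR3R1 replicate 2 or 3. For YAP1-FAM118B against naive, 4861 were called, but 3106 and 2979 without YAP1-FAM118B replicate 1 or 3.

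Same-numbered replicates showed no steady pairing: over 18 pairs of libraries, deviations from the group means correlated at -0.11 to 0.32. The correlation was over 0.1 in 4 pairs, and the own number was the best match in 7. The highest value was that of replicate 3 in YAP1-TFE3 and YAP1-MAMLD1-dR3R1. Whether some replicate numbers shared a batch was not tested. With the replicate block, 3 members were called for YAP1-FAM118B against YAP1-MAMLD1-dR3R1, Tigit in YAP1-TFE3 and Ctla4 in YAP1-MAMLD1-dR3R1 against naive no longer passed (edgeR adjusted p = 0.0759 and 0.0846), and for YAP1-TFE3 against YAP1-FAM118B the Pdcd1 log2 fold change became 0.072 and that of Cd86 -0.040.

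Signs changed only for differences that did not pass with all libraries. With both libraries left out, Ido1 for YAP1-FAM118B against naive became -0.27 and Pdcd1 for YAP1-TFE3 against YAP1-FAM118B 0.83, and Cd86 in that contrast became -0.057 with library size alone and -0.050 with no filter. Leaving out 1 library, log2 fold changes against naive ran from -1.13 to 4.34 for Pdcd1lg2 and -4.04 to 7.23 for Ctla4 in YAP1-TFE3, and from -0.32 to 4.84 for Ctla4 and -0.89 to 1.62 for Ido1 in YAP1-FAM118B. For YAP1-TFE3 against YAP1-FAM118B they ran from -2.16 to 2.65 for Pdcd1lg2, -0.70 to 0.83 for Pdcd1, -4.83 to 3.74 for Ctla4, -0.70 to 0.31 for Havcr2, -1.96 to 2.79 for Tigit and -1.22 to 0.24 for Cd86. With no filter, 3 in place of 5 tryptophan genes were lower in YAP1-FAM118B than in YAP1-MAMLD1-dR3R1. Ctla4, Tigit and Pdcd1lg2 had 2 to 7 counts in all naive libraries together, which limits the precision of their fold changes.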
